A study of Mus musculus with 2 samples.

Results

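Basophils, mast cells and eosinophils are granule-bearing cells of allergy and of the defence against parasites, and each stores its own set of proteins in cytoplasmic granules. The 10 genes described here serve as markers of these cells, although which cells expressed them was not tested. They are Mcpt8, Prss34, Cpa3, Fcer1a, Ms4a2 and Gata2 for basophils and mast cells, and Epx, Prg2, Ear2 and Ear6 for eosinophils. They were taken by name from the deposited expression data, and all 10 were found among the 34745 genes listed.

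Basophils and mast cells carry the high-affinity IgE receptor, FcεRI, which is built from an α chain that binds IgE (Fcer1a), a β chain that amplifies the signal (Ms4a2) and a γ chain that is shared with other Fc receptors (Fcer1g). Eosinophil granules hold major basic protein, a peroxidase and a family of ribonucleases. GATA2 is a transcription factor on which basophil and mast cell precursors depend.

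The RNA came from monocytic myeloid-derived suppressor cells (M-MDSCs), immature myeloid cells that restrain T cells, induced from mouse bone marrow cells in culture for 7 days and then sorted by flow cytometry as CD11b+Ly6G-Ly6Chigh cells. CHBP- M-MDSC were induced with GM-CSF, a myeloid growth factor, and CHBP+ M-MDSC with GM-CSF together with CHBP, a peptide derived from erythropoietin. The study asked how CHBP alters these cells, and sequenced 1 library per condition. Of the strain, the labels say C57BL/6 in the case of CHBP- M-MDSC but C57BL/7 in that of CHBP+ M-MDSC, and the methods name only the former. Nothing states whether the libraries came from separate cultures or from pooled mice. The counted reads summed to 16484504 in CHBP- and 16280466 in CHBP+ M-MDSC. With 1 library per condition there is no spread between replicates, so the differences given are between these 2 libraries. An effect of CHBP and a difference of another kind cannot be told apart.

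Each gene has a read count and an FPKM, its reads scaled to the length of the gene and to the total of the library. The log2 ratio is that of CHBP+ over CHBP- after 1 was added to each FPKM, which understates the change of genes at low FPKM, and genes called 1.5-fold apart are so on this scale. The ratio of CPM, reads scaled to the total of the library alone, is given with a 95% Clopper-Pearson interval, which is exact. For 14162 genes that had 10 reads or more, the reads of both libraries were compared by an exact binomial test, two-sided, and its p was adjusted by the Benjamini-Hochberg method. Reads are not independent molecules, so these intervals and this test cover counting error only, and the intervals are not adjusted for the number of genes. Because RNA was taken from all sorted cells together, fewer cells of a type and less RNA per cell cannot be told apart in any result here.

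All 10 genes had reads in both libraries and at least 1 FPKM, the level that a gene had to reach in one library or the other to be kept, as 10948 genes did. Ms4a2, the β chain of the IgE receptor, was the only one of the 10 that was at least 1.5-fold higher in CHBP+ M-MDSC, against 3.42% of all genes kept. Mcpt8, a basophil protease, was the only one at least 1.5-fold lower, against 2.89% of all genes kept. The other genes had log2 ratios from -0.54 to -0.11, so that 9 of the 10 lay below 0, as did 53.7% of all genes kept. Once the trend of the log2 ratio with gene length, given further on, was removed, Cpa3, Fcer1a and Ear2 lay above 0 beside Ms4a2. The median log2 ratio was -0.16 for the 10 genes and -0.03 for all genes kept. Mcpt8 lay just inside the 1.5-fold threshold with a log2 ratio of -0.61, and Prss34 just outside it with -0.54. By the exact binomial test, Ms4a2 was higher, against 21.9% of genes tested, and Mcpt8, Prss34, Cpa3, Gata2 and Prg2 were lower, against 22.2% of genes tested. Fcer1a, Epx, Ear2 and Ear6 did not pass that test.

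**Figure D1:**
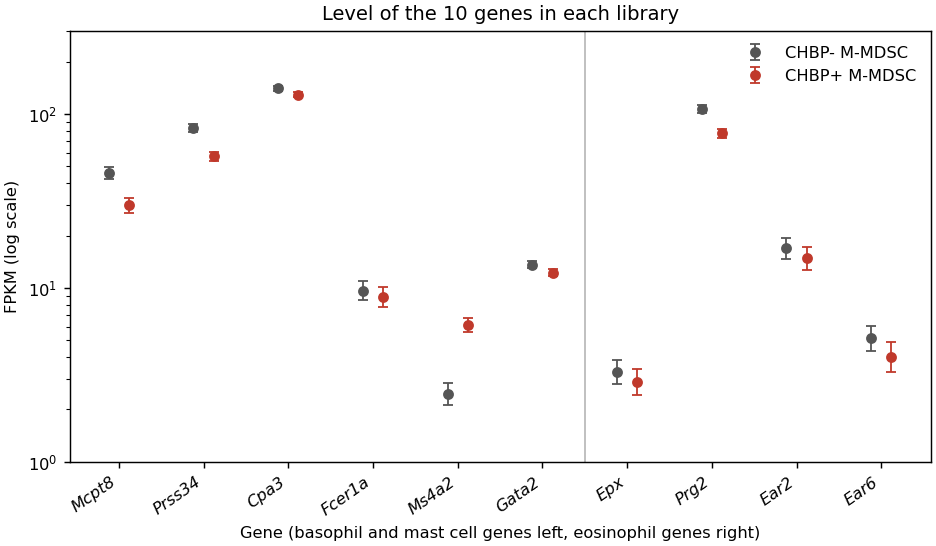
FPKM of each of the 10 genes on a log scale in CHBP- M-MDSC (grey) and CHBP+ M-MDSC (red), 1 library each, with bars for the 95% exact Poisson interval of the reads. Cpa3 was the highest gene in both libraries, and Ms4a2 was the only gene whose red point lies above the grey one.

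The 10 genes spanned a wide range of levels. In FPKM, which can be compared between genes, Cpa3 was highest with 141 in CHBP- and 130 in CHBP+ M-MDSC, where it ranked 301 and 287 of all 34745 genes listed. Prg2 followed with 107 and 77.8 FPKM, then Prss34 with 83.4 and 57.2 and Mcpt8 with 46.1 and 29.9. These 4 genes, which all encode granule proteins, kept this order in both libraries, and the counting intervals of neighbours in the order did not overlap. Ear2, Gata2 and Fcer1a came next at 8.89 to 16.9 FPKM, with overlapping intervals of Ear2 and Gata2 in CHBP+ M-MDSC. At the lower end, Ms4a2 was the lowest of the 10 in CHBP- M-MDSC with 2.46 FPKM, below Epx with 3.28 FPKM, and stood above Ear6 and Epx in CHBP+ M-MDSC with 6.11 FPKM. The intervals of Ms4a2 and Epx overlapped in CHBP- M-MDSC, and those of Ear6 and Epx in CHBP+ M-MDSC. The reads of all 10 genes came to 617 CPM in CHBP- and 527 CPM in CHBP+ M-MDSC, a ratio of 0.855 (95% exact interval from 0.831 to 0.880). Cpa3 alone held 34.8% of these reads in CHBP- and 37.3% in CHBP+ M-MDSC.

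FPKM depends on the gene length used. The length implied by count and FPKM was longer than the longest coding transcript of the GENCODE M1 annotation for 6 of the 10 genes, by little for Cpa3 (1517 against 1452 bases) and Epx (2867 against 2689) and by more for Gata2 (8506 against 3241 bases), Ms4a2 (4485 against 2391), Ear6 (1606 against 893) and Fcer1a (1548 against 1026). Scaled to the transcript in place of the implied length, the level of Gata2 was 35.8 FPKM in CHBP- and 32.1 in CHBP+ M-MDSC, and that of Ms4a2 was 4.62 and 11.5. The place of these genes in the order of levels thus depends on the length chosen, whereas the ratio between the libraries does not.

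Ms4a2 is listed on chromosome 19 from 11615523 to 11623719 (GRCm38). Its 182 reads in CHBP- M-MDSC stood against 446 reads in CHBP+ M-MDSC, a CPM ratio of 2.48 (95% exact interval from 2.08 to 2.96). Its log2 ratio was 1.04, and 73 of the 10948 genes kept, Ms4a2 included, had a log2 ratio at least that high. With an adjusted p = 5.12e-26 by the exact binomial test, the difference exceeded counting error. No listed gene overlaps Ms4a2, and the nearest one, Ms4a3, a gene of the same family, begins 5777 bases away. Ms4a3 had 1640 reads in CHBP- and 1248 in CHBP+ M-MDSC, a ratio of 0.771 (0.715 to 0.830). Ms4a6d, another member of this family that encodes membrane proteins with several membrane-spanning segments, had 2098 and 2179 reads, a ratio of 1.05 (0.990 to 1.12). Ms4a3 was lower by the exact binomial test, and Ms4a6d did not pass it.

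The α chain gene, Fcer1a, which lies on chromosome 1 from 173221284 to 173227214, had 246 reads in CHBP- and 224 in CHBP+ M-MDSC. Its ratio of 0.922 had a 95% exact interval from 0.766 to 1.11, which includes 1, so a difference was not detectable at this depth. The γ chain gene, Fcer1g, had 7496 reads in CHBP- and 5594 in CHBP+ M-MDSC, a ratio of 0.756 (0.730 to 0.782). The 3 subunits of the receptor therefore did not move together. The ratio of Ms4a2 to Fcer1a was 2.69 times as high in CHBP+ as in CHBP- M-MDSC (95% exact conditional interval from 2.08 to 3.48), and that of Ms4a2 to Fcer1g was 3.28 times as high (2.75 to 3.94). In FPKM, Fcer1a was 3.92 times the level of Ms4a2 in CHBP- M-MDSC and 1.46 times in CHBP+ M-MDSC. These multiples depend on the length used. Scaled to the transcript, Fcer1a stood at 14.5 and Ms4a2 at 4.62 FPKM in CHBP- M-MDSC, and at 13.4 and 11.5 in CHBP+ M-MDSC. Fcer1g, which myeloid cells use for other Fc receptors as well, stood at 283 and 214 FPKM, far above both.

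The start of the Ms4a2 gene is shown because it differed most of the 10 genes and because GATA factors are known to act on genes of this lineage. The start of Fcer1a is set beside it as the other chain that basophils and mast cells add to the shared γ chain. Each line gives 110 bases before and 10 bases after the RefSeq start on GRCm38.p6, read in the direction of the gene. Capitals mark matches to the motif of GATA factors, which is GATA preceded by A or T and followed by A or G, on either strand.
Ms4a2, chr19:11623710-11623829, minus strand: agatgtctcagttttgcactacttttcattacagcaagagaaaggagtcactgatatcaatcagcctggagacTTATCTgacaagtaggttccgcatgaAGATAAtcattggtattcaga
Fcer1a, chr1:173227220-173227339, minus strand: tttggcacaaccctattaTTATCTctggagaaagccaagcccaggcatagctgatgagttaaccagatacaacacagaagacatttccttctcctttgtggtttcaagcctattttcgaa
The Ms4a2 window held 2 matches, which begin 37 and 11 bases before the start, the first of them on the opposite strand. In the whole 300-base entry of Ms4a2, from 250 bases before to 50 after the start, a further match lay 224 bases before the start. The Fcer1a entry held 1 match, 92 bases before the start on the opposite strand. Of all 32851 RefSeq promoter entries, 29.8% held at least 1 such match in 300 bases and 1.76% held at least 3. In windows of 120 bases, 12.5% of all entries held at least 1 match and 1.42% at least 2. These are matches of letters, and binding was not measured here.

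Cpa3 encodes carboxypeptidase A3, a protease stored with heparin in mast cell granules and also made by basophils. It lies on chromosome 3 from 20215620 to 20242181. The reads numbered 3537 in CHBP- and 3200 in CHBP+ M-MDSC, a CPM ratio of 0.916 (95% exact interval from 0.873 to 0.961). The log2 ratio was -0.13, with an adjusted p = 0.00114 by the exact binomial test. The difference exceeded counting error but was small, and with the length trend removed the log2 ratio was 0.07.

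Mcpt8, mast cell protease 8, is a serine protease made chiefly by basophils in spite of its name. The gene lies on chromosome 14 from 56082166 to 56085216. Mcpt8 had 650 reads in CHBP- and 416 in CHBP+ M-MDSC, a CPM ratio of 0.648 (95% exact interval from 0.572 to 0.734). Its level was thus 1.54-fold lower in CHBP+ M-MDSC, with an adjusted p = 2.57e-11 by the exact binomial test with Benjamini-Hochberg adjustment.

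Prss34 encodes mast cell protease 11, a tryptase that basophils release. The gene lies on chromosome 17 from 25298394 to 25300161. Prss34 had 1672 reads in CHBP- and 1133 in CHBP+ M-MDSC, a CPM ratio of 0.686 (0.636 to 0.740), with an adjusted p = 9.50e-22 by the same exact test. Both basophil proteases fell, and a difference between their falls was not detectable: the ratio of Mcpt8 to Prss34 was 0.944 times that of CHBP- M-MDSC, with a 95% exact conditional interval from 0.815 to 1.09. Both fell relative to Cpa3. The ratio of Mcpt8 to Cpa3 was 0.707 times that of CHBP- M-MDSC (0.618 to 0.809), and the ratio of Prss34 to Cpa3 was 0.749 times (0.684 to 0.820).

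The starts of these 3 protease genes are shown in the same way, since both basophil proteases fell relative to Cpa3.
Cpa3, chr3:20242172-20242291, minus strand: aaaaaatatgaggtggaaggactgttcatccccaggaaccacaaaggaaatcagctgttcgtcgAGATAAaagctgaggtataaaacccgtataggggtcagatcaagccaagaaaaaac
Prss34, chr17:25298284-25298403, plus strand: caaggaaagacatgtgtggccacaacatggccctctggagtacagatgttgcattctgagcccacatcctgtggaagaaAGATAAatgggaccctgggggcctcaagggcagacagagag
Mcpt8, chr14:56085188-56085307, minus strand: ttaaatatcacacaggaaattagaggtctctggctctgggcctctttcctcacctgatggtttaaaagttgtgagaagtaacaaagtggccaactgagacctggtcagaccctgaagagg
Cpa3 held 1 match 46 bases before its start and Prss34 held 1 match 31 bases before its start, both on the strand of the gene. The entries of Mcpt8, Gata2, Epx, Ear2 and Ear6 held none of these letters in 300 bases. Prg2 had no promoter entry to search. Whether the matches relate to the differences between the libraries was not tested.

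Gata2 lies on chromosome 6 from 88193891 to 88207032. Gata2 had 1910 reads in CHBP- and 1692 in CHBP+ M-MDSC, a CPM ratio of 0.897 (95% exact interval from 0.840 to 0.958) and a log2 ratio of -0.15. Genes of its length tended the other way, with a median log2 ratio of 0.07 in the same one of 10 classes of genes by length. Gata1, a related factor of eosinophils, mast cells and the erythroid line, had 140 and 87 reads, a ratio of 0.629 (0.476 to 0.828). The ratio of Gata1 to Gata2 was 0.702 times that of CHBP- M-MDSC, with a 95% exact conditional interval from 0.526 to 0.931. The 2 genes lie on opposite sides of the length trend, and with that trend removed their log2 ratios were -0.35 for Gata1 and -0.23 for Gata2, against -0.47 and -0.15 before. The ratio of Gata2 to Cpa3 was 0.979 times that of CHBP- M-MDSC (0.902 to 1.06). A difference between these 2 genes was thus not detectable without removal of the trend. Once it was removed, the log2 ratios were -0.23 for Gata2 and 0.07 for Cpa3, and these were not compared by a test.

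Prg2 encodes major basic protein, the chief protein of the eosinophil granule core. The gene lies on chromosome 2 from 84980461 to 84983632. Prg2 had 1481 reads in CHBP- and 1061 in CHBP+ M-MDSC, a CPM ratio of 0.725 (95% exact interval from 0.670 to 0.785). The exact binomial test with Benjamini-Hochberg adjustment gave an adjusted p = 1.08e-14. Prg3, a second major basic protein gene 4583 bases away, had 139 and 90 reads, a ratio of 0.656 (0.497 to 0.861). The ratio of Prg2 to Prg3 was 1.11 times that of CHBP- M-MDSC (0.832 to 1.48), so a difference between these neighbours was not detectable. No stretch of 75 bases, the read length, in the Prg2 transcript occurred in the transcript of another gene of the annotation.

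Epx, eosinophil peroxidase, lies on chromosome 11 from 87864000 to 87875536. Epx had 155 reads in CHBP- and 135 in CHBP+ M-MDSC, a CPM ratio of 0.882 (95% exact interval from 0.695 to 1.12). Ear2 and Ear6 encode eosinophil-associated ribonucleases and lie on chromosome 14, from 44102654 to 44103534 and from 51853699 to 51854643. Ear2 had 200 and 174 reads, a ratio of 0.881 (0.715 to 1.08). Ear6 had 136 and 105 reads, a ratio of 0.782 (0.60 to 1.02). Each of these 3 intervals includes 1, so a difference was not detectable at this depth. The ratios of Epx and Ear2 also could not be told from that of Prg2, since the ratio of Prg2 to Epx was 0.823 times that of CHBP- M-MDSC (0.640 to 1.06) and that of Prg2 to Ear2 was 0.824 times (0.658 to 1.03). In FPKM, Prg2 was 32.7 times the level of Epx in CHBP- and 26.9 times in CHBP+ M-MDSC. Summed, the 4 eosinophil genes had 1972 reads in CHBP- and 1475 in CHBP+ M-MDSC, a ratio of 0.757 (0.707 to 0.811), most of them from Prg2. The 6 basophil and mast cell genes had 8197 and 7111 reads, a ratio of 0.878 (0.851 to 0.907).

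**Figure D2:**
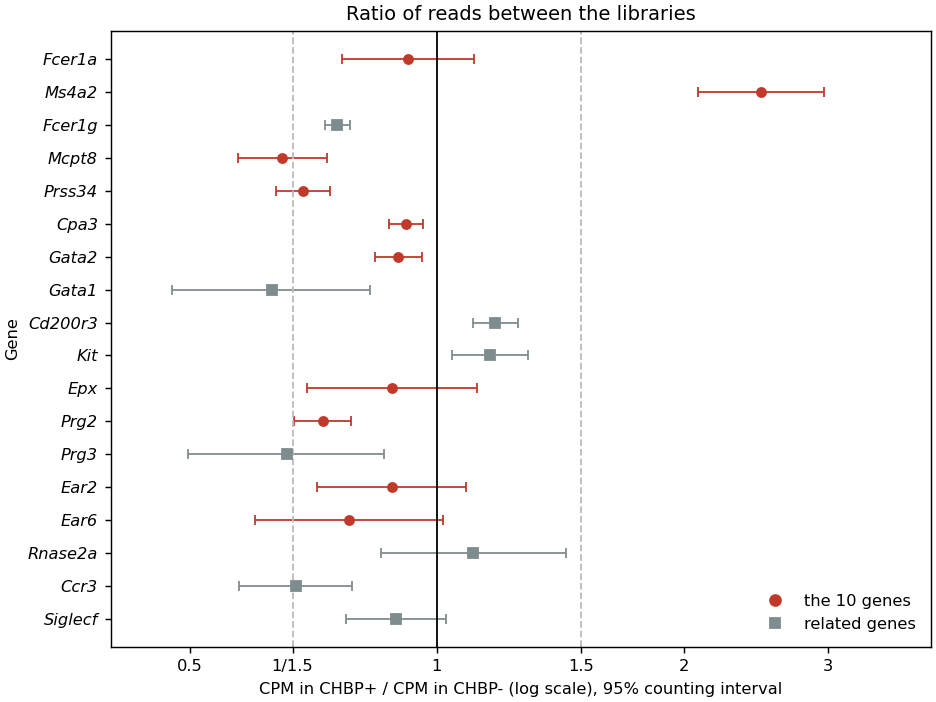
CPM in CHBP+ over CPM in CHBP- M-MDSC on a log scale for the 10 genes (red circles) and related genes (grey squares), with 95% exact counting intervals and dashed lines at 1.5-fold lower and higher. Ms4a2 at 2.48 is the only gene beyond the right dashed line, the other red points lie between 0.648 and 0.922, and the intervals of Fcer1a, Epx, Ear2 and Ear6 cross 1.

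Several of these genes have close relatives, and many of the relatives had few reads or none. Of the serine proteases beside Mcpt8 on chromosome 14, Ctsg, the cathepsin G of early neutrophils and monocytes, had 3468 reads in CHBP- and 2571 in CHBP+ M-MDSC, and Gzmb, granzyme B, had 51 and 40. In contrast, Cma1, the chymase of connective tissue mast cells, had 3 and 2 reads, Mcpt4 had 0 and 1, and Mcpt1, Mcpt2, Mcpt9 and Cma2 had none in either library. A count of 0 allows up to 3 reads, or 0.182 CPM in CHBP- and 0.184 CPM in CHBP+ M-MDSC. Near Prss34 on chromosome 17, the tryptase Tpsb2 had 16 and 15 reads, Tpsg1 had 22 and 9, Prss28 had 4 and 3, Tpsab1 had 1 and 0, and Prss29 had none. Mcpt8 thus had the most reads of the Mcpt and Cma genes on chromosome 14 and Prss34 the most of these tryptases, whereas the chymases and tryptases beside them had 22 reads or fewer in each library.

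Among the ribonuclease genes, levels also ranged widely. Of the other Ear genes listed, pseudogenes aside, Ear1 had 6 reads in each library, Ear10 had 2 and 0 and Ear14 had none. Of more distant ribonucleases, Rnase4 had 305 and 306 reads and Rnase6 had 102 and 71. Rnase2a, a further member that older annotation calls Ear11, had 117 reads in CHBP- and 128 in CHBP+ M-MDSC, a ratio of 1.11 (95% exact interval from 0.855 to 1.44). The ratio of Rnase2a to Ear2 was 1.26 times that of CHBP- M-MDSC (0.899 to 1.76). Ear2 is so close to Ear1 that their transcripts are identical at 96.1% of 719 aligned columns. Of all stretches of 75 bases in Ear2, 22.0% also occur in Ear10 or Ear1. Reads from those stretches could have been left out or divided, and the counting of such reads is not stated. Ear6 matched Ear2 at 62.9% of 948 aligned columns, but that count includes gaps. The transcripts differ in length, with 893 bases for Ear6 and 719 for Ear2, so the share of matches among paired bases is higher. Ear6 had no stretch of 75 bases in common with another gene. Together, the 5 genes listed under the name Ear, Ear2 and Ear6 included, had 344 and 285 reads, a ratio of 0.839 (0.714 to 0.984). This sum leaves out Rnase2a, whose ratio of 1.11 lay on the other side of 1, with an interval that includes 1.

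**Figure D3:**
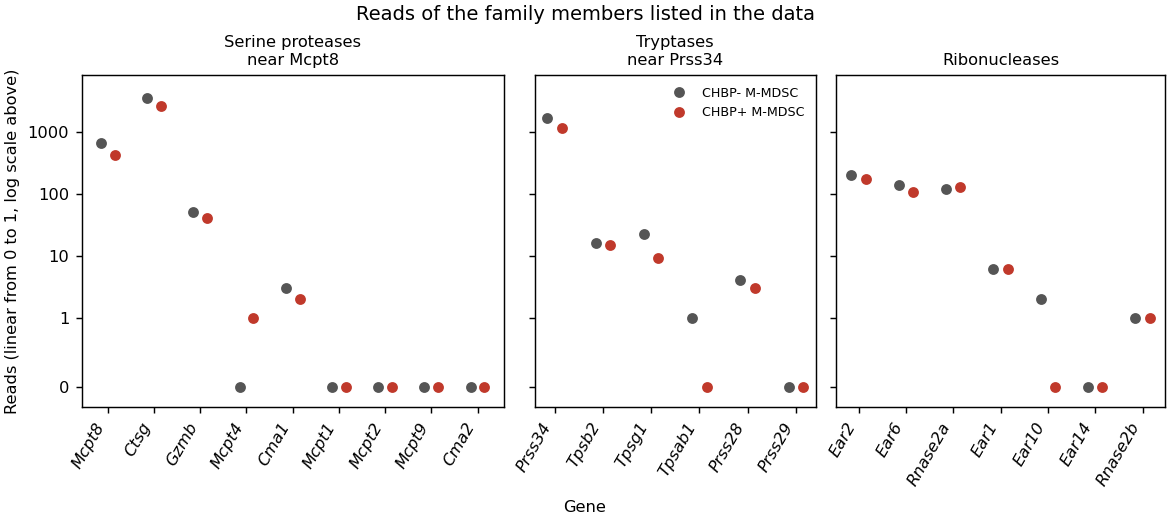
Reads per gene in CHBP- (grey) and CHBP+ M-MDSC (red) for relatives of Mcpt8, of Prss34 and of the Ear genes, on an axis that is linear from 0 to 1 and logarithmic above. Mcpt8, Ctsg and Prss34 had over 400 reads in both libraries, Ear2, Ear6 and Rnase2a had 105 to 200, and the other relatives plotted had 51 reads or fewer.

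The log2 ratio of all genes followed the gene length implied by the data, with Spearman's rho = 0.478 across 10948 genes, which are not independent replicates. The median log2 ratio was -0.30 in the shortest of 10 classes of genes by length and 0.23 in the longest. This bears on the 10 genes because Mcpt8 (855 bases), Prss34 (1216), Prg2 (838) and Ear2 (719) fell in the shortest class. Relative to the trend, the log2 ratios of Mcpt8, Prss34 and Prg2 were -0.37, -0.32 and -0.22. All 3 were still lower, but Mcpt8 no longer reached 1.5-fold. The value of Ms4a2, whose length of 4485 bases lies where the median is -0.03, was 1.08 relative to the trend. Gata2, a long gene, lay further below 0, with -0.23. The median of the 10 genes was -0.06 relative to the trend, against -0.02 for all genes kept. The part of the trend in each gene's difference was not tested.

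**Figure D4:**
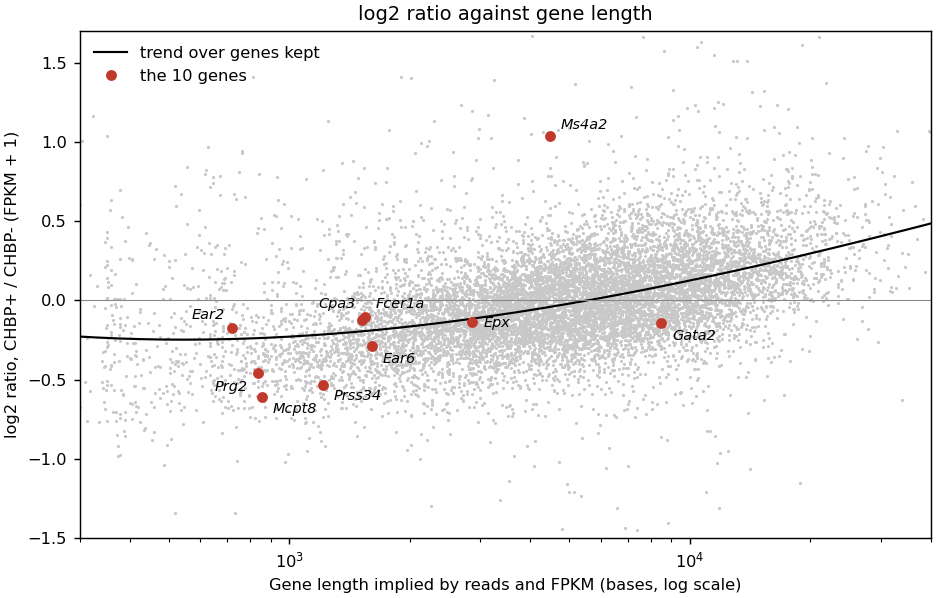
Log2 ratio of FPKM + 1, CHBP+ over CHBP- M-MDSC, against the implied gene length on a log scale for genes kept (grey points), with the fitted trend (black line) and the 10 genes (red); 82 of 10948 genes lie outside the axes. Ms4a2 with 1.04 lies far above the trend, and Mcpt8 with -0.61 lies below it among short genes.

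Other genes of each cell type were read from gene lists. Over all genes tested, 21.9% were higher and 22.2% lower by the exact binomial test, and no list was tested against these shares or against another list. Of 24 mast cell genes, 8 were kept, 7 had no reads and none was 1.5-fold apart. By the exact binomial test, 3 were higher and 3 lower of 11 tested. The genes with the highest levels were Cd63, a granule membrane protein, at 589 FPKM in CHBP- and 543 in CHBP+ M-MDSC, Srgn, the core protein that holds granule proteases, at 531 and 426, Hdc, which makes histamine, at 40.2 and 37.9, and Ndst2, which modifies heparin, at 11.9 and 13.3. Srgn and Cd63 are used by many myeloid cells. Kit, the receptor of mast cells and progenitors, had 646 and 740 reads, a ratio of 1.16 (1.04 to 1.29), and was higher by that test. Its log2 ratio of 0.16 was -0.02 with the length trend removed.

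Of 15 basophil genes, 11 were kept and none was 1.5-fold apart. By the exact binomial test, 5 were higher and 5 lower of 14 tested, and the median log2 ratio was -0.25, against -0.03 for all genes kept. With the length trend removed it was -0.07, against -0.02. Ifitm1, Csf1, Itgb7 and Osm had the highest levels, from 1008 FPKM in CHBP- and 727 in CHBP+ M-MDSC for Ifitm1 to 20.3 and 19.2 for Osm. Cd200r3, a receptor found on basophils and mast cells, had 1830 and 2130 reads, a ratio of 1.18 (1.11 to 1.26). The other higher genes by the same test were Hgf, with a ratio of 1.53 and a log2 ratio of 0.57, Il18rap with 1.27 and Csf1 with 1.11. Itga2, which was not kept, was higher as well, with 23 and 45 reads and a ratio of 1.98. The lower genes were Itgb7, Cd69, Il3ra, Ifitm1 and Cyp11a1, with ratios of 0.825, 0.822, 0.770, 0.721 and 0.705. Il4, a cytokine of basophils, had 61 and 46 reads, with a ratio of 0.764 (0.509 to 1.14), and Il13 had 8 and 3.

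Of 22 eosinophil genes, 17 were listed and 10 were kept. None was 1.5-fold apart, and of 14 tested none was higher and 6 were lower by the exact binomial test. The median log2 ratio was -0.22, and -0.16 with the length trend removed. Cd24a (460 FPKM in CHBP- and 383 in CHBP+ M-MDSC), Cebpe (53.9 and 36.0), Siglece (27.2 and 21.6) and Alox15 (22.2 and 21.1) had the highest levels. Cebpe, a factor needed to make granules, had a ratio of 0.669 (0.608 to 0.735). Ccr3, the eotaxin receptor, had 396 and 263 reads, a ratio of 0.672 (0.573 to 0.788). Siglecf, an eosinophil surface lectin, had 436 and 384 reads, with a ratio of 0.892 whose interval from 0.775 to 1.03 includes 1. Il5ra, the receptor of the eosinophil growth factor IL-5, had 21 and 14 reads.

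The 24 genes of signalling from the IgE receptor were all kept. Of these, 11 were higher and 6 lower by the exact binomial test, none was 1.5-fold higher and 1 was 1.5-fold lower. The median log2 ratio was 0.09, and -0.02 with the length trend removed. The gene that was 1.5-fold lower was Orai1, the channel through which calcium enters mast cells after receptor binding. Orai1 had 582 and 274 reads, a ratio of 0.477 (0.411 to 0.551). Its position overlaps that of another listed gene with reads, and how reads in such an overlap were counted is not known. Beside Fcer1g, the highest levels by the mean of both libraries were those of Ptpn6 (69.6 and 61.3 FPKM), Plcg2 (53.4 and 57.7) and Prkcd (50.6 and 52.6). Syk, the kinase that binds the γ chain, had a ratio of 1.14 (1.10 to 1.17). Its log2 ratio of 0.18 was -0.02 with the length trend removed. Lyn, the kinase that binds the β chain, had a ratio of 1.01 (0.970 to 1.06). The highest log2 ratio on this list was 0.31, that of the adaptor Gab2, against 1.04 for Ms4a2.

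Of 24 transcription factors of these lineages, 22 were kept, and 4 were higher and 12 lower by the exact binomial test. Nfe2, a factor of the megakaryocyte and erythroid lines, was 1.5-fold lower, with 3119 and 1991 reads, a ratio of 0.646 (0.611 to 0.684). Id2, Xbp1, Bhlhe40 and Spi1 had the highest levels, from 175 and 157 FPKM for Id2 to 85.7 and 72.0 for Spi1. Tal1, a partner of GATA factors, had 655 and 389 reads, a ratio of 0.601 (0.529 to 0.683). Mitf, a mast cell factor, had 1041 and 1209 reads, a ratio of 1.18 (1.08 to 1.28).

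Of 14 cytokines and receptors, 9 were kept, none was 1.5-fold apart, and 5 were higher and 2 lower of 11 tested. Csf2rb, the β chain shared by the receptors of GM-CSF, IL-3 and IL-5, stood at 715 and 903 FPKM, a ratio of 1.26 (1.25 to 1.28), and Csf2rb2, the β chain of the IL-3 receptor alone, had a ratio of 1.23 (1.2 to 1.25). Csf2ra, the α chain of the GM-CSF receptor, stood at 101 and 87.4 FPKM, and Il7r, the IL-7 receptor, at 43.1 and 51.9. Il3ra, the α chain for the basophil growth factor IL-3, had 255 and 194 reads, a ratio of 0.770 (0.636 to 0.932). Of 14 genes of mediator synthesis, 5 were higher and 4 lower of 13 tested, and none was 1.5-fold apart. Alox5ap, which leukotriene synthesis needs, stood at 182 and 128 FPKM, and Alox5 at 28.7 and 30.6. Of 8 genes of granule storage, 2 were higher and 4 lower, and none was 1.5-fold apart. Among them, Ctsg stood at 210 and 158 FPKM, Serpinb1a, an inhibitor of such proteases, at 73.1 and 63.8, and Ctsc, which activates them, at 63.2 and 66.1.

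The sorted identity of the cells was read from its own markers. Itgam, which encodes CD11b, is listed as 2 entries, at 157 and 100 FPKM in CHBP- and 232 and 153 FPKM in CHBP+ M-MDSC. Ly6c2 stood at 56.9 and 34.0 FPKM, and Ly6g had 46 and 44 reads. Of the defining mast cell markers, Cpa3 and Kit were present while Tpsb2, Cma1, Tpsab1 and Mcpt4 had 16 reads or fewer in each library and Mrgprb2 had none. All 5 basophil markers had at least 182 reads in each library, with a summed level of 155 FPKM in CHBP- and 118 in CHBP+ M-MDSC. This sum was lower although Ms4a2 and Cd200r3 were higher. Most of it came from Prss34 (83.4 and 57.2 FPKM) and Mcpt8 (46.1 and 29.9), both in the shortest class of genes by length. Of the 5 eosinophil markers, all but Il5ra were kept, with a summed level of 122 and 89.4 FPKM. Prg2 alone made up 107 and 77.8 FPKM of that sum.

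Markers of other cells also differed between the libraries. Of the promyelocyte markers, 4 of 4 were lower by the exact binomial test, among them Elane and Prtn3 by at least 1.5-fold, with a summed level of 337 FPKM in CHBP- and 238 in CHBP+ M-MDSC. Of the neutrophil markers, 3 of 7 were lower and none higher, with a summed level of 1939 and 1413 FPKM, and their median log2 ratio of -0.21 was 0.03 with the length trend removed. Of the progenitor markers, 1 of 5, Kit, was higher and none lower, with summed levels of 51.8 and 50.8 FPKM. The log2 ratio of Kit was -0.02 with the length trend removed. Of 4 erythroid markers listed, 2 were lower, with a summed level of 716 FPKM in CHBP- and 218 in CHBP+ M-MDSC. Most of it came from the haemoglobin gene Hbb-bs, which fell from 20238 to 5989 reads, a ratio of 0.300. Of the macrophage markers, 2 of 4, Mrc1 with a ratio of 1.45 and Adgre1 with 1.16, were higher and none lower, with summed levels of 168 and 198 FPKM. Of the monocyte markers, 2 of 6 were higher and 3 lower. Of the megakaryocyte markers, 1 was higher and 2 lower of 6, and of the B cell markers 3 of 4 were lower. The part of any of these cells in the differences of the 10 genes was not tested.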

How the data were processed

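Single-end reads of 1 library per condition were filtered by the authors with Seqtk. The methods name TopHat2, HT-seq and mm9, whereas the submitters' processing notes name HISAT2 2.0.4, Cufflinks 2.1.1 and GRCm38. Deposited coordinates overlapped the RefSeq GRCm38.p6 gene for 10 of 10 genes. The deposited counts are raw reads per gene. In the deposited FPKM, counts were scaled to gene length and to the library's sum of counts, with the same length in both libraries for 10273 genes (tolerance 0.0001). How strand and multi-mapping were handled is not given in the sources used here. No model was fitted, since 1 library per condition leaves no spread to estimate, and the DESeq test of the methods was not repeated.

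The 10 genes, the gene lists and the tests were chosen with earlier results of these data known. Named are the 10 genes, genes of each list at least 1.5-fold apart or among its 4 highest by mean FPKM of both libraries, family neighbours, and markers near 0. Kit, Cd200r3, Hgf, Il18rap, Itga2, Cyp11a1, Il4, Il13, Ccr3, Siglecf, Il5ra, Gata1, Tal1, Mitf, Gab2, Syk, Lyn, Il3ra, Cd69, Rnase4, Rnase6, Hbb-bs, Mrc1, Adgre1, Elane, Prtn3, Prg3, Rnase2a, Ms4a3 and Ms4a6d go beyond that rule or may do so, and were chosen after their values were seen.

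Alternatives were a pseudocount of 0.1, CPM, trimmed mean of M values (R 4.3.3, edgeR 4.0.16), a median log2 ratio set to 0, removal of the length trend (a least-squares polynomial of degree 3 in log10 length), other filters and folds, and summed Ear genes. Tested on simulated data for CHBP+ against CHBP-, the exact test without a fold threshold recovered 173 of 196 genes changed 3-fold and called 9 of 13794 unchanged genes. The simulated reads varied by counting error alone and held no length trend, unlike the data. Python 3.11.15, numpy 2.4.6, pandas 2.3.3, scipy 1.17.1 and matplotlib 3.10.9 were used.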

Additional observations from a re-analysis of the deposited data

How the results depend on the processing

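Ms4a2 stayed at least 1.5-fold higher in CHBP+ M-MDSC in every alternative that was run, and its log2 ratio ranged from 1.04 to 1.28. The count of genes at least 1.5-fold lower, which was 1 (Mcpt8), was 0 with the median log2 ratio set to 0, 0 with the length trend removed and 0 at a fold threshold of 2. The first of these shifted every gene by 0.028 on the log2 scale. The log2 ratio of Cpa3 was 0.0702 with the length trend removed, where those of Fcer1a and Ear2 were 0.09 and 0.07. With trimmed mean of M values, at least 50 reads, overlapping genes left out or Ear genes summed, the same 6 genes passed the exact binomial test. Over all genes kept, 374 were at least 1.5-fold higher and 316 lower. These counts were 665 and 571 with a pseudocount of 0.1, 796 and 464 of 12660 genes with CPM, 218 and 209 of 6720 genes with at least 5 FPKM, 85 and 46 at a fold threshold of 2, and 312 and 168 with the length trend removed. With the median log2 ratio set to 0 they were 434 and 264.

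No paired analysis was possible because each condition has 1 library, and no replicate was left out for the same reason. Depth limits Fcer1a, Epx, Ear2 and Ear6, whose 105 to 246 reads leave intervals that include 1. Strand and multi-mapping in the counting limit Ear2 most, as it shares stretches of sequence with Ear10 and Ear1.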
